A study of Mus musculus with 2 samples.

Results

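The cell cycle genes described here are 35 genes of DNA replication and cell division, chosen by symbol from a fixed list of S-phase and mitotic genes out of the 31053 genes measured. By role, 10 are S-phase genes, 22 are genes of G2 and mitosis, and 3 (Hmgb2, Tubb5 and Stmn1) are genes that rise in dividing cells but are also used widely outside division. All 35 were found in the files, and each held at least 10 unique molecular identifiers (UMIs, counted transcripts) over both libraries together. The data are single-cell RNA counts from mice of the genotype R26[CA]30EYFP on a C57Bl/6J background, whose pancreatic cells were separated after pancreatitis into an EYFP positive and an EYFP negative library, 1 library each. Both libraries share that genotype, background and pancreatitis, and their labels give no treatment. The labels do not give the number of animals, their age, how pancreatitis was induced or the time after it. The reporter's own transcript was not analysed here, so the labels of the libraries were not checked against it. Since each group is a single library, no difference can be tested against replicates, each compares these libraries only, and each interval given after a value is an exact 95% interval that covers counting error alone.

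A cell copies its DNA in S phase and divides the copies in mitosis. E2F factors switch on the S-phase genes before replication, among them the clamp Pcna and the Mcm helicase. Later the MuvB complex, B-Myb and FoxM1 act on the genes of mitosis, among them the B-type cyclins and the spindle and kinetochore proteins. In the adult pancreas most cells rest, and pancreatitis is known to bring in immune cells and to make acinar and duct-like cells re-enter the cycle.

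Many promoters of these genes carry short words that these or other factors are known to use. Of the promoters, 4 are shown because they represent the replication group and the mitotic group that the counts below separate. The windows run from 250 bases before to 50 bases after the RefSeq gene start in build GRCm38.p6, on the gene's own strand. Capitals in the first pair mark the cell cycle homology region (CHR) words TTTGAA or TTTAAA and the CCAAT box. Capitals in the second pair mark E2F words and the CCAAT box. Each word was searched on both strands, and matches may overlap.
Ccnb2 (chr9:70421505-70421804, minus strand): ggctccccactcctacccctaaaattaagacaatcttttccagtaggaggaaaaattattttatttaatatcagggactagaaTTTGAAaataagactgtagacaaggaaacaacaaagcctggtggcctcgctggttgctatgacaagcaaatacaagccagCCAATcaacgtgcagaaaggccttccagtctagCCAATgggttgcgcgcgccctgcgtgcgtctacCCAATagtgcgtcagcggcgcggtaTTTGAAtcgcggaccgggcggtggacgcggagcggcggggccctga
Plk1 (chr7:122159185-122159484, plus strand): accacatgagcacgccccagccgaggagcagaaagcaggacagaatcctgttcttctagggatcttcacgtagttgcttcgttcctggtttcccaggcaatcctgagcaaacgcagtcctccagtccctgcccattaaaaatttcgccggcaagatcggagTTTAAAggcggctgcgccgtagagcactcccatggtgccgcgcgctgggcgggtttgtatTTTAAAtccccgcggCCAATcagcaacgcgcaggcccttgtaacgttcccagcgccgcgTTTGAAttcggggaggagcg
Mcm3 (chr1:20820263-20820562, minus strand): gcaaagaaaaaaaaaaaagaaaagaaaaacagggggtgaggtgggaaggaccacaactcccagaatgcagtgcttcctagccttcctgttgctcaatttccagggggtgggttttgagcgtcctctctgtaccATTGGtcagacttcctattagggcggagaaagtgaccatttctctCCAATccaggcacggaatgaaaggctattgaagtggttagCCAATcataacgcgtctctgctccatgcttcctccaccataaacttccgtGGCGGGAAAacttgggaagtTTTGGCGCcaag
Mcm6 (chr1:128359656-128359955, minus strand): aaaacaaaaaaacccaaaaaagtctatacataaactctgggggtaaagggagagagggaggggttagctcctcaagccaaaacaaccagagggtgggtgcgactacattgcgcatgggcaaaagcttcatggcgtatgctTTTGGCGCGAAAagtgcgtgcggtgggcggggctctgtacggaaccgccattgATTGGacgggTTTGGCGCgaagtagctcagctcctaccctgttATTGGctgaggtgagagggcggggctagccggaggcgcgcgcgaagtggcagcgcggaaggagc

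Of the 35 genes, 30 matched a promoter in the RefSeq table, with 31 windows, since Mcm7 has a pair of them. Ccna2, Mcm4, Stmn1, Aurkb and Tpx2 had no entry. A CHR word stood in 16 of 19 windows of the mitotic genes (84.2%) and in 3 of 10 windows of the S-phase genes, against 27.6% of all 32851 windows of the same length. A CCAAT word stood in 17 of 19 mitotic windows and 9 of 10 S-phase windows, against 37.4% of all windows. An E2F word (TTTCCCGC, TTTGGCGC, TTTCGCGC, TTCCCGCC or TTTCCCGG) stood in 2 of 19 mitotic windows and 5 of 10 S-phase windows, against 4.69% of all windows. These matches describe the letters of the windows and are not binding sites shown to be in use.

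The libraries differed strongly in depth, and deeper barcodes can show more different cell cycle genes. After filtering, 860 EYFP positive barcodes with 2745342 UMIs and 553 EYFP negative barcodes with 4857210 UMIs remained, with a median of 1007.5 UMIs per EYFP positive barcode and 8020 per EYFP negative barcode. Under 1000 UMIs lay 49.7% of EYFP positive barcodes, against 0.904% of EYFP negative barcodes. The libraries shared 4 barcode sequences. By UMIs these 4 held ranks 1, 2, 4 and 5 in the EYFP negative library, and their EYFP positive copies held between 1.28% and 2.24% as many UMIs. Of the genes found in the EYFP positive copies, 545 of 548, 691 of 692, 144 of 151 and 144 of 154 were also found in the EYFP negative copy. The filter kept 2 of these barcodes in both libraries. A B-like barcode with all 35 genes in the EYFP negative library is among them, and its EYFP positive copy of 879 UMIs showed 8 of the 35. Over all 35 genes, 27 were at least 2-fold lower in the EYFP positive library, both with and without the EYFP positive copies. Of all genes tested, 7.63% and 7.65% were lower, in that order. Without the shared barcodes in both libraries 25 of the 34 genes then tested were lower, against 7.75% of all genes. How the barcodes came to be shared was not tested.

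The 35 genes together held 1735 UMIs in EYFP positive barcodes and 8595 UMIs in EYFP negative barcodes. Their summed level was 632 CPM (603 to 662) in EYFP positive barcodes, against 1770 CPM (1732 to 1807) in EYFP negative barcodes, where CPM is the UMIs of a gene or list per 1000000 UMIs of the same barcodes. This difference rested largely on few barcodes. In the EYFP negative library 9 of 553 barcodes (1.63% of barcodes, 5.60% of UMIs) each showed 15 or more of the 35 genes and together held 4289 UMIs of them, 49.9% of that library's total. No EYFP positive barcode reached 15 (0 of 860), where a floor of 3 barcodes would be a share of 0.349%. Without those 9 barcodes the level was 632 CPM in the EYFP positive library, against 939 CPM (911 to 968) in the EYFP negative library. The limit of 15 was chosen after the values were seen. In the EYFP negative library no barcode lay between 12 and 15 genes, and the nearest below had 11. In the EYFP positive library the highest had 14, 13 and 12.

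**Figure D1:**
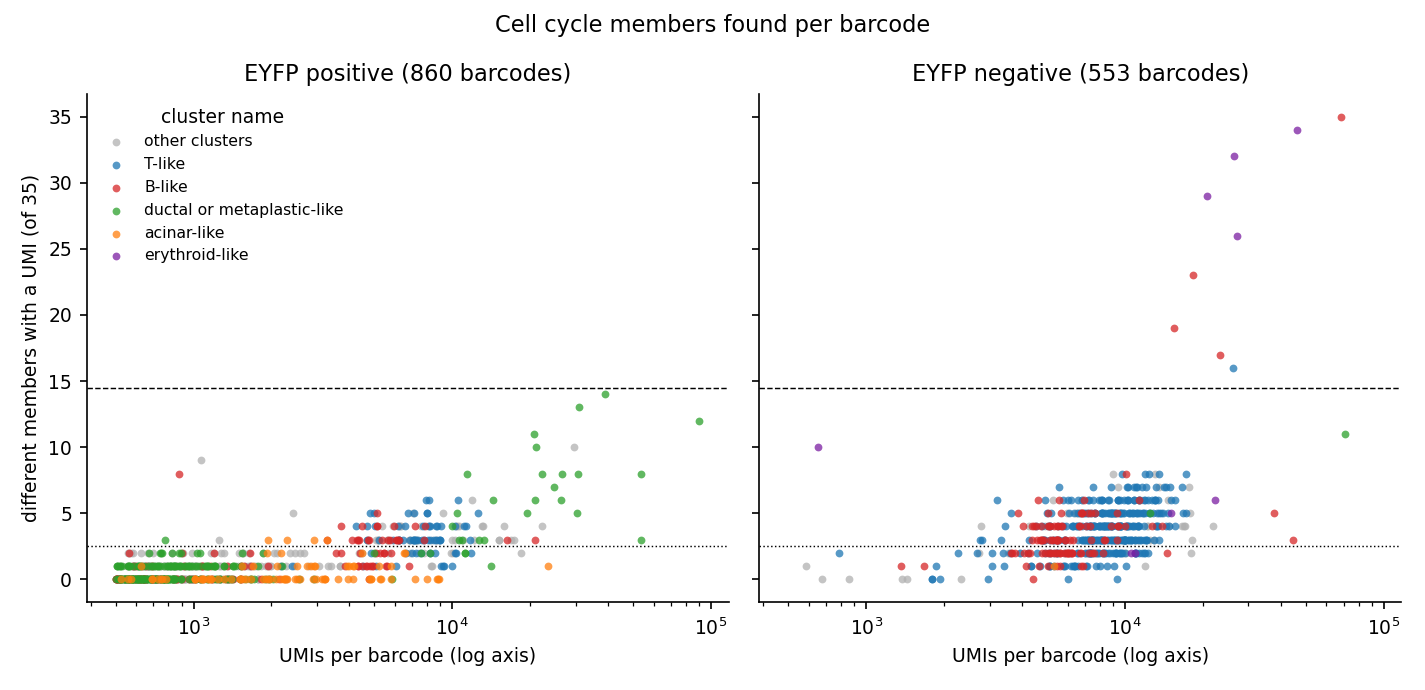
Different cell cycle genes with at least 1 UMI (vertical axis, of 35) against total UMIs per barcode (horizontal log axis), 1 point per kept barcode, with EYFP positive on the left and EYFP negative on the right; colours give the cluster name, the dotted line marks 3 genes and the dashed line 15. Most barcodes rise slowly with depth, while 9 EYFP negative barcodes lie above the dashed line, with 16 to 35 genes.

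The 9 barcodes were of 3 kinds by their own marker genes, and they are numbered within each kind by how many of the 35 genes they showed. B marker barcodes 1 to 4 had 35, 23, 19 and 17 of the genes and between 75 and 294 B marker UMIs. T marker barcodes 1 to 3 had 34, 32 and 16 of the genes and 753, 225 and 119 T marker UMIs. Erythroid marker barcodes 1 and 2 had 29 and 26 of the genes, with 12266 and 17505 UMIs of erythroid markers, mostly hemoglobin. T marker barcode 1 carried 30 UMIs of Cd8a, 51 of Cd8b1 and 0 of Cd4, the co-receptor genes that separate killer from helper T cells. The erythroid barcodes also held the red cell precursor gene Alas2 (24 and 46 UMIs), which makes heme. B marker barcode 4 also held 52 T marker UMIs, among them 7 each of Cd3e and Trac. Scrublet, a doublet caller, marked none of the 9.

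Clustering placed T marker barcodes 1 and 2 with the hemoglobin-rich barcodes in a cluster of 9 EYFP negative barcodes that the markers named erythroid-like. Those barcodes held 5 and 6 UMIs of erythroid markers, which goes against that name, so they are described here by their own markers. The cluster held 6 hemoglobin-rich barcodes, with 29, 26, 6, 5, 2 and 2 of the 35 genes. Of these, 2 were therefore rich in cell cycle genes and 4 were not, at 10521 to 22209 UMIs per barcode in those 4.

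The 9 barcodes showed a pair of patterns. In 5 of them the mitotic genes exceeded the S-phase genes by far. These were B marker barcode 1, T marker barcodes 1 and 2 and both erythroid barcodes, with 714, 414, 484, 374 and 345 mitotic UMIs and 51, 29, 33, 27 and 9 S-phase UMIs, in that order. They showed 20 to 22 of the 22 mitotic genes, and 20 of the 22 were found in every one of the 5. In the other 4, B marker barcodes 2 to 4 and T marker barcode 3, S-phase genes led, with 59, 37, 31 and 35 S-phase UMIs and 37, 12, 10 and 11 mitotic UMIs. These showed 6 to 11 mitotic genes, and 8 of the 22 were found in none of them.

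Within the S-phase group the patterns used different genes. Pcna and Mcm2 to Mcm7, which form the clamp and the helicase of replication, summed to 61 UMIs over the 5 mitotic-led barcodes (188989 UMIs in all) and 155 UMIs over the 4 others (83190 UMIs in all). Erythroid marker barcode 2 held 0 UMIs of these 7 genes, and erythroid marker barcode 1 held 2, both Mcm7. Rrm2, the cell-cycle-controlled subunit of ribonucleotide reductase that supplies DNA building blocks, went the other way, with 30 UMIs over the mitotic-led barcodes and 2 over the others. Rrm1 and Tyms did so too. In the mitotic-led barcodes, in the order above, Rrm1 held 14, 4, 5, 7 and 5 UMIs and Tyms 6, 7, 5, 4 and 1. In the others Rrm1 held 2, 2, 0 and 0 UMIs and Tyms 0, 0, 1 and 0. Since the patterns were defined by these counts, they are a description with no test.

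**Figure D2:**
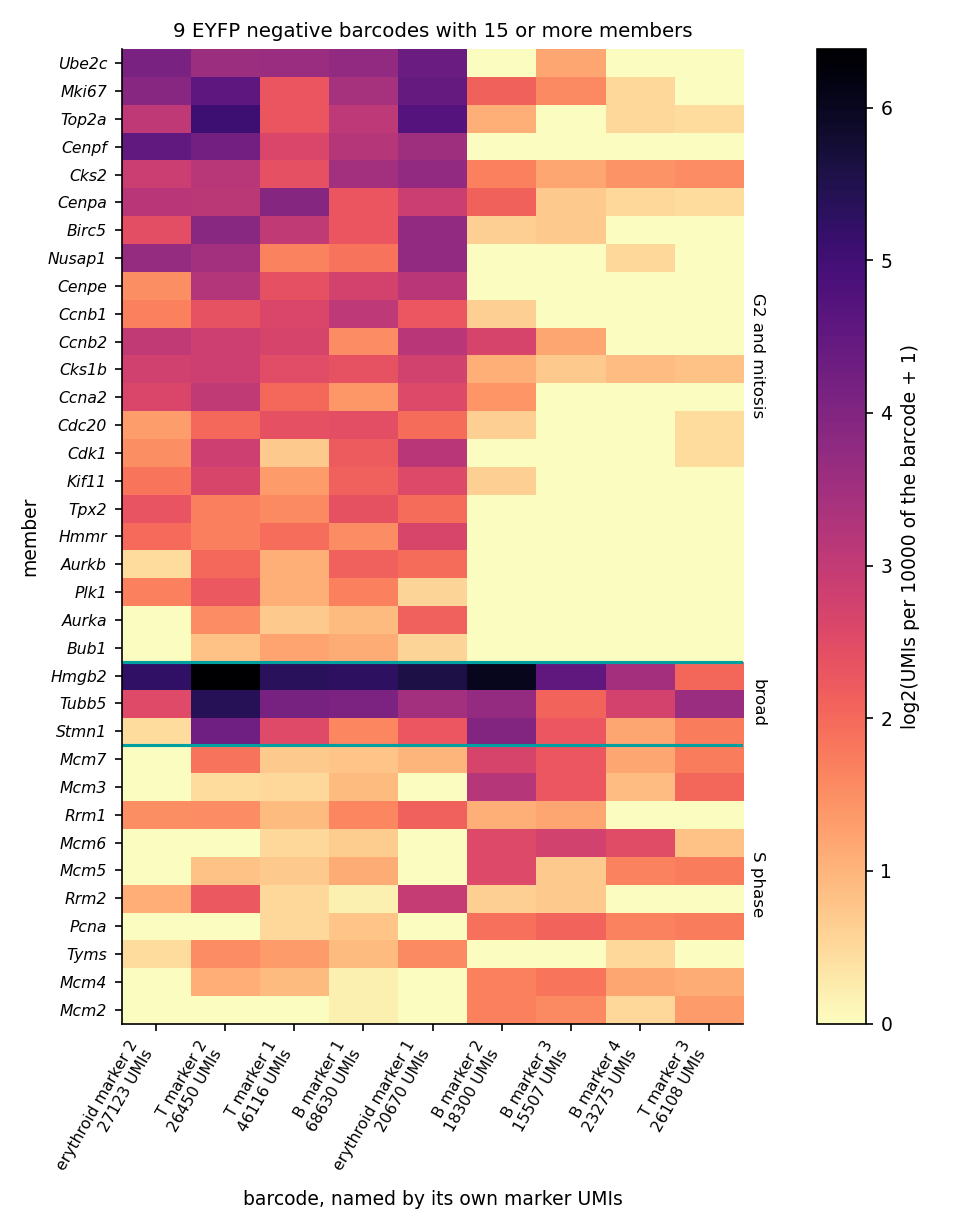
Levels of the 35 genes (rows, as log2 of UMIs per 10000 of the barcode plus 1) in the 9 EYFP negative barcodes with 15 or more of them (columns, with total UMIs); turquoise lines divide genes of G2 and mitosis, the 3 broad genes and S-phase genes. The 5 barcodes on the left are dark in the mitotic rows, and the 4 on the right are pale there and darker in the Mcm and Pcna rows.

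Individual genes make this visible. Mki67, a protein that coats mitotic chromosomes and the standard marker of cycling cells (chromosome 7, 135689784 to 135716361, GRCm38), held 67 UMIs in B marker barcode 1, 18 and 60 in T marker barcodes 1 and 2, and 43 and 38 in the erythroid barcodes. In the S-phase-led barcodes it held 6, 3 and 1 UMIs in B marker barcodes 2 to 4 and 0 in T marker barcode 3. Top2a, which untangles the copied DNA, held 51, 18, 85, 52 and 20 UMIs in the mitotic-led barcodes in the same order of barcodes, against 2, 0, 1 and 1 in the others. Cenpf, a kinetochore protein, had 208 UMIs in the EYFP negative library, all of them in the 5 mitotic-led barcodes. Mcm6 ran the other way, with 4, 2, 0, 0 and 0 UMIs in the mitotic-led barcodes and 9, 9, 11 and 2 in the S-phase-led ones.

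The genes of G2 and mitosis were the most unequal between the libraries. Summed, the 22 genes had 168 UMIs (61.2 CPM) in EYFP positive barcodes and 2757 UMIs (568 CPM) in EYFP negative barcodes, a ratio of 0.108 (0.0917 to 0.126). All 22 were at least 2-fold lower in the EYFP positive library, where 7.63% of all 13282 genes with at least 10 UMIs were 2-fold lower and 26.8% 2-fold higher. The interval lay below 1 for 18 of them, and the remaining 4 (Ccnb2, Nusap1, Bub1 and Hmmr) had 0 UMIs in EYFP positive barcodes. Without the 9 barcodes the mitotic sum in the EYFP negative library was 356 UMIs (77.6 CPM) and the ratio 0.788 (0.652 to 0.949). Of the mitotic UMIs of both libraries, 82.1% lay in those 9 barcodes.

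Among the kinases and cyclins, Cdk1, the kinase that starts mitosis, had 2 UMIs in EYFP positive barcodes and 71 in EYFP negative barcodes. Its cyclin partners Ccna2, Ccnb1 and Ccnb2 had 2, 1 and 0 UMIs in EYFP positive barcodes, against 72, 107 and 106 in EYFP negative barcodes. Cks1b and Cks2, small proteins that bind such kinases, had 32 and 24 UMIs in EYFP positive barcodes, against 135 and 224 in EYFP negative barcodes. Plk1, Aurka, Aurkb and the checkpoint kinase Bub1 had 4, 1, 2 and 0 UMIs in EYFP positive barcodes, against 39, 25, 47 and 17 in EYFP negative barcodes. The Cks pair was thus the least unequal of these, and without the 9 barcodes Cks1b had a ratio of 1.53 (0.915 to 2.54) and Cks2 of 0.716 (0.424 to 1.17).

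Genes that end mitosis followed the same course. Cdc20 and Ube2c, which activate and serve the anaphase-promoting complex, had 4 and 5 UMIs in EYFP positive barcodes, against 73 and 262 in EYFP negative barcodes, of which the 9 barcodes held 70 and 251. Birc5 (survivin), which works with Aurkb at the centromere, had 4 UMIs in EYFP positive barcodes and 137 in EYFP negative barcodes, 136 of them in the 9. Birc5 was 19.4 times lower in the EYFP positive library (7.39 to 72.1).

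Among centromere and spindle genes, Cenpf, Cenpe and Cenpa had 3, 9 and 51 UMIs in EYFP positive barcodes, against 208, 109 and 302 in EYFP negative barcodes. Nusap1, Tpx2, Kif11 and Hmmr, which organise the spindle, had 0, 1, 2 and 0 UMIs in EYFP positive barcodes, against 123, 61, 65 and 51 in EYFP negative barcodes. Against a floor of 3 UMIs in the EYFP positive sum, Nusap1 was at least 23.2-fold lower and Ccnb2 at least 19.97-fold lower in the EYFP positive library. Cenpa, the histone that marks centromeres, was more widely spread, in 40 EYFP positive and 119 EYFP negative barcodes, and 147 of its 302 EYFP negative UMIs lay outside the 9. Its ratio was 0.299 (0.218 to 0.403) over all barcodes and 0.579 (0.413 to 0.802) without the 9.

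Mki67 and Top2a themselves had 9 and 12 UMIs in EYFP positive barcodes, against 246 and 277 in EYFP negative barcodes. Mki67 was 15.4 times lower (8.01 to 34.2) in EYFP positive barcodes, and without the 9 barcodes its ratio was 1.503 (0.540 to 4.12), with 9 EYFP positive UMIs and 10 EYFP negative UMIs left. Of those 9 EYFP positive UMIs, 5 came from a single B-like barcode.

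The S-phase genes differed less and were spread over many barcodes. The 10 genes had 392 UMIs (143 CPM) in EYFP positive barcodes, against 1304 UMIs (268 CPM) in EYFP negative barcodes, a ratio of 0.532 (0.474 to 0.596), with 18.3% of the UMIs in the 9 barcodes. Without those the ratio was 0.659 (0.585 to 0.742). At 2-fold, 3 of the 10 were lower, against 7.63% of all genes tested. Pcna had 97 UMIs in 74 EYFP positive barcodes and 365 UMIs in 225 EYFP negative barcodes. The helicase genes Mcm2, Mcm3, Mcm4, Mcm5, Mcm6 and Mcm7 had 23, 47, 32, 18, 61 and 51 UMIs in EYFP positive barcodes, against 66, 139, 100, 90, 189 and 173 in EYFP negative barcodes. Their ratios ran from 0.354 for Mcm5 to 0.617 for Mcm2, whose interval reached 1.

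The nucleotide supply genes split. Rrm1, the constant subunit of ribonucleotide reductase, had 34 UMIs in EYFP positive barcodes and 100 in EYFP negative barcodes. Its partner Rrm2 had 2 UMIs in EYFP positive barcodes and 40 in EYFP negative barcodes, 32 of them in the 9 barcodes. Tyms, which makes thymidylate, had 27 UMIs in EYFP positive barcodes and 42 in EYFP negative barcodes, a ratio of 1.14 (0.674 to 1.89), and 2.505 (1.33 to 4.83) without the 9.

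The 3 broad genes held most of the UMIs in both libraries, 1175 in EYFP positive barcodes and 4534 in EYFP negative barcodes. Tubb5, a beta tubulin, had 638 UMIs in EYFP positive barcodes and 2368 in EYFP negative barcodes (ratio 0.477, 0.436 to 0.520). Hmgb2, a chromatin protein, had 391 UMIs in EYFP positive barcodes and 1916 in EYFP negative barcodes (ratio 0.361, 0.323 to 0.403), with 54.5% of the 1916 in the 9 barcodes. Stmn1, which takes microtubules apart, had 146 UMIs in EYFP positive barcodes and 250 in EYFP negative barcodes, a ratio of 1.03 (0.837 to 1.27), and 2.14 (1.66 to 2.76) without the 9.

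Over the whole list 27 of 35 genes were at least 2-fold lower and 0 at least 2-fold higher in the EYFP positive library, with a median log2 ratio of -3.19 (0.5 UMI added), against a median of 0.21 over all genes tested. Without the 9 barcodes 20 genes kept at least 10 UMIs, of which 3 were 2-fold lower (Top2a, Pcna and Rrm2) and 3 were 2-fold higher (Stmn1, Tyms and Cenpe), with a median of -0.46. There 6.66% of all genes were 2-fold lower and 27.2% 2-fold higher.

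**Figure D3:**
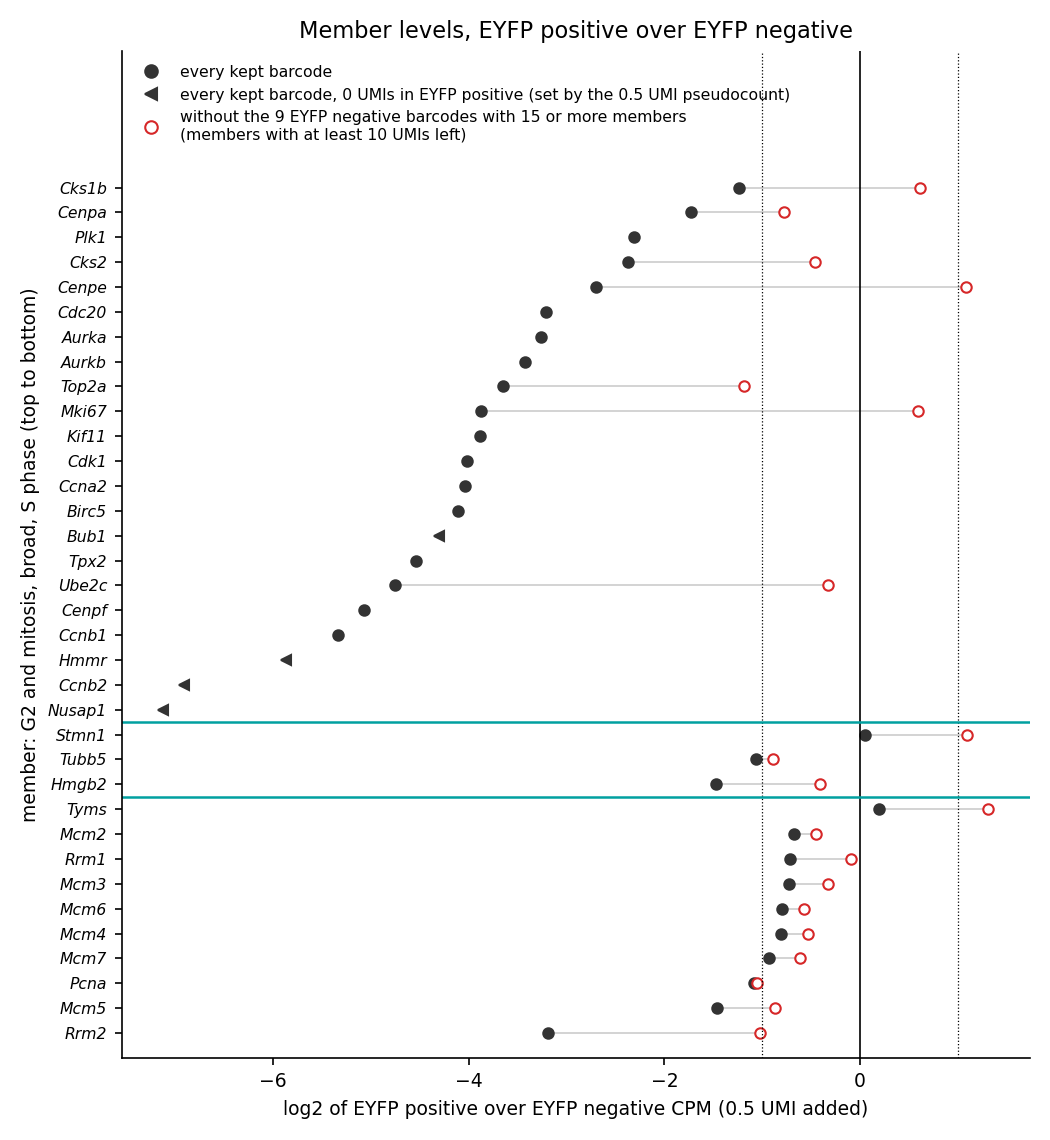
log2 ratio of EYFP positive over EYFP negative CPM (0.5 UMI added) for the 35 genes, with every kept barcode (filled; triangles where EYFP positive had 0 UMIs, whose place depends on the 0.5) and without the 9 high EYFP negative barcodes (open, where at least 10 UMIs remained); dotted lines mark 2-fold. Filled points of G2 and mitosis genes lie left of -1, while the 20 open points have a median of -0.46.

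Counting barcodes with 3 or more different genes gave 145 of 860 EYFP positive barcodes (16.9%, 14.4 to 19.5) and 401 of 553 EYFP negative barcodes (72.5%, 68.6 to 76.2). In both libraries the counted barcodes were deeper than the rest. Counted EYFP positive barcodes had a median of 7726 UMIs, against 845 in the rest, and counted EYFP negative barcodes had 8705, against 6145.5. With each barcode thinned to 1000 UMIs, 4 of 433 EYFP positive barcodes (0.924%, 0.252 to 2.35) and 26 of 548 EYFP negative barcodes (4.74%, 3.12 to 6.87) still showed 3 genes, after 427 EYFP positive and 5 EYFP negative barcodes too shallow for this were left out. Thinned to 3000 UMIs, 42 of 228 EYFP positive barcodes (18.4%, 13.6 to 24.1) and 167 of 532 EYFP negative barcodes (31.4%, 27.5 to 35.5) did, after 632 EYFP positive and 21 EYFP negative barcodes were left out. At 1000 UMIs 1 EYFP positive barcode and 6 EYFP negative barcodes showed 5 or more, and those 6 were all among the 9.

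By cluster, T-like barcodes had 3 or more genes in 48 of 68 EYFP positive barcodes (70.6%, 58.3 to 81.0; median 7627.5 UMIs) and 282 of 370 EYFP negative barcodes (76.2%, 71.5 to 80.5; median 8410.5 UMIs). B-like barcodes had them in 26 of 113 EYFP positive barcodes (23.01%, 15.6 to 31.9; median 1355 UMIs) and 68 of 110 EYFP negative barcodes (61.8%, 52.1 to 70.9; median 5630 UMIs). In the ductal or metaplastic-like cluster 24 of 223 EYFP positive barcodes (10.8%, 7.02 to 15.6; median 801 UMIs) were counted, and both of its 2 EYFP negative barcodes. The remaining EYFP positive counts were 14 of 58 blood endothelial-like, 12 of 54 macrophage or monocyte-like, 9 of 64 fibroblast-like, 4 of 87 acinar-like, 0 of 32 NK-like and 8 of 161 unnamed barcodes. The remaining EYFP negative counts were 4 of 11 blood endothelial-like, 7 of 11 macrophage or monocyte-like, 1 of 6 fibroblast-like, 0 of 1 acinar-like, 13 of 14 NK-like, 7 of 9 erythroid-like and 17 of 19 unnamed barcodes.

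Most of the T-like barcodes counted this way held neither of the main cycling markers. Among T-like barcodes with 3 to 14 genes, 6 genes that resting cells also use (Hmgb2, Tubb5, Stmn1, Pcna, Cks1b and Cks2) gave 76.0% of the cell cycle UMIs of EYFP positive barcodes and 77.9% of those of EYFP negative barcodes. Neither Mki67 nor Top2a was found in 43 of these 48 EYFP positive and 253 of these 281 EYFP negative T-like barcodes. Without those 6 genes, 2.67% of all EYFP positive barcodes still showed 3 or more, as did 18.1% of all EYFP negative barcodes.

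In T-like barcodes the S-phase genes summed to 153 CPM (121 to 192) in EYFP positive cells, against 233 CPM (216 to 250) in EYFP negative cells. The mitotic genes summed to 53.1 CPM (35.005 to 77.3) in EYFP positive cells, against 78.9 CPM (69.4 to 89.3) in EYFP negative cells. Of 16 genes with at least 10 UMIs in T-like barcodes, 3 were at least 2-fold lower and 1 at least 2-fold higher in EYFP positive barcodes, against 7.26% and 4.82% of all genes tested there. Tubb5 in T-like barcodes was at 358 CPM in EYFP positive cells, against 500.3 CPM in EYFP negative cells, a ratio of 0.716 (0.611 to 0.835). Hmgb2 was at 195 CPM in EYFP positive cells and 192 CPM in EYFP negative cells, a ratio of 1.02 (0.813 to 1.26).

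In B-like barcodes the mitotic genes summed to 115 CPM (80.7 to 158) in EYFP positive cells, against 981 CPM (915 to 1050) in EYFP negative cells. Of 31 genes with at least 10 UMIs there, 28 were at least 2-fold lower and 0 at least 2-fold higher in EYFP positive barcodes, against 10.1% and 5% of all genes tested. Without the 4 high barcodes the EYFP negative mitotic level was 75.2 CPM from 54 UMIs, while the EYFP positive level of 115 CPM came from 37 UMIs. The order of these levels is not settled. The EYFP positive copy of B marker barcode 1 stayed in with 7 of those 37 UMIs, and another barcode gave 5 UMIs of Mki67. Of 12 genes then tested, 2 were 2-fold lower and 0 higher in EYFP positive barcodes, where 6.67% of all genes were lower and 5.82% higher.

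**Figure D4:**
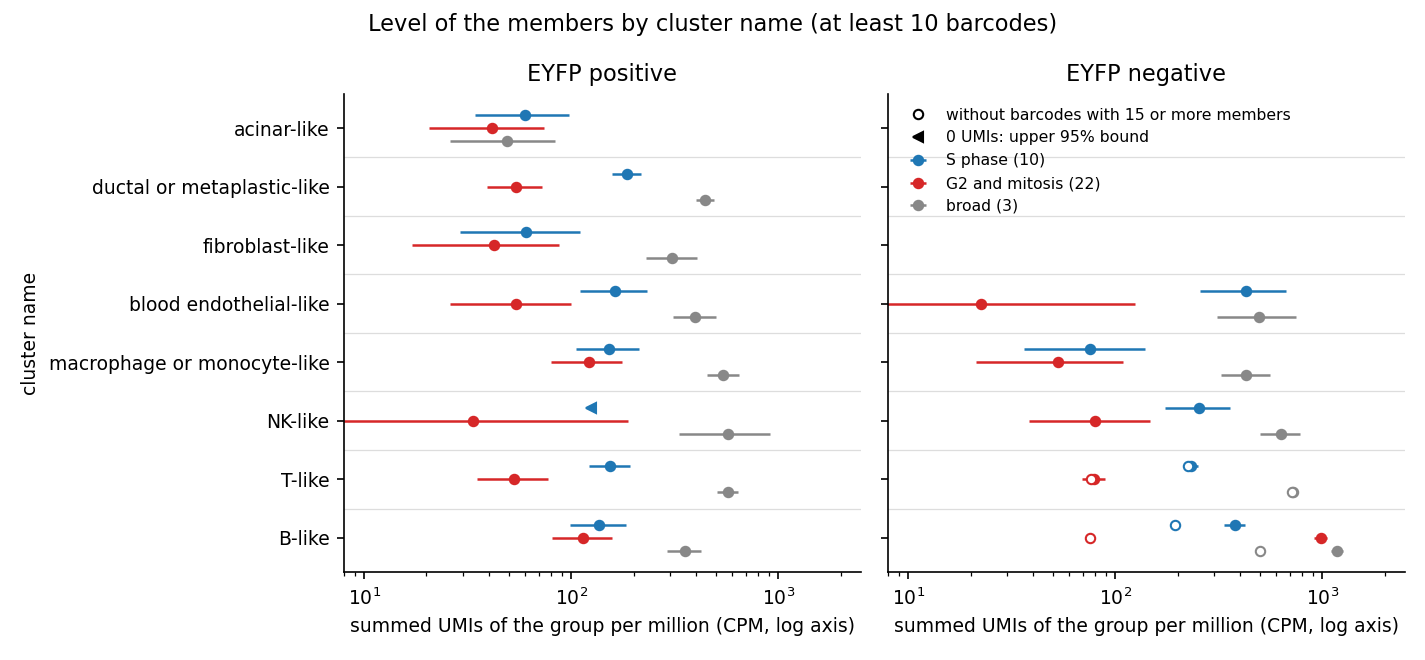
Summed level of S-phase, mitotic and broad genes (CPM, log axis, with exact 95% intervals) by cluster name for clusters with at least 10 barcodes, EYFP positive on the left and EYFP negative on the right. Open circles leave out barcodes with 15 or more genes, which moves the mitotic level of EYFP negative B-like barcodes to 75.2 CPM, against 981 CPM with them.

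In the EYFP positive library the largest numbers of genes per barcode belonged to ductal or metaplastic-like cells. Of its 6 barcodes with 10 or more genes, 5 were in that cluster, with 14, 13, 12, 11 and 10 genes and between 20671 and 90166 UMIs. Cell cycle UMIs made up between 0.0832% and 0.168% of their totals, against between 0.341% and 3.37% in the 9 high EYFP negative barcodes. They held 2 to 9 mitotic UMIs each and 6 to 26 S-phase UMIs. The sixth was a barcode with 29659 UMIs in the macrophage or monocyte-like cluster, whose most abundant markers were those of dendritic cells, with 13 mitotic UMIs from 5 genes.

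Shallow barcodes with a high share were rare. An EYFP positive barcode of 1067 UMIs in the macrophage or monocyte-like cluster, with 1 UMI of that cluster's markers and 2 of endocrine markers, held 9 genes in 12 UMIs, 6 of them mitotic (Top2a, Ccna2, Cenpf, Cenpa, Tpx2 and Kif11). A barcode of 651 UMIs in the EYFP negative library held 10 genes in 19 UMIs. Its cluster was the erythroid-like one, but it held 1 erythroid marker UMI.

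Acinar-like cells had low levels and few barcodes with 3 genes. The 87 EYFP positive acinar-like barcodes held 40 UMIs of the 35 genes, 150 CPM (107 to 205), and Hmgb2 had 1 UMI. Mki67 or Top2a was found in 6 of the 87 (6.90%, 2.57 to 14.4; median 2248 UMIs), 1 UMI in each. In the same library these genes were found in 1 of 223 ductal or metaplastic-like barcodes. They were found in 0 of 64 fibroblast-like barcodes, which allows up to 5.60%, and 0 of 58 blood endothelial-like barcodes, which allows up to 6.16%. Because depth differs, levels are the safer comparison. Mki67 and Top2a summed to 22.5 CPM (8.27 to 49.1) in acinar-like barcodes and 1.198 CPM (0.0303 to 6.67) in ductal or metaplastic-like barcodes of the EYFP positive library. The ductal or metaplastic-like value came from 1 UMI, below the floor of 3 UMIs. In the same library Mki67 and Top2a summed to 13.8 CPM in T-like barcodes and 15.5 CPM in B-like barcodes, both within the acinar-like interval. The B-like value came from 5 UMIs of 1 barcode. The whole mitotic group was not higher in acinar-like than in ductal or metaplastic-like barcodes. It summed to 41.3 CPM (20.6 to 73.9) in acinar-like and 53.9 CPM (39.3 to 72.1) in ductal or metaplastic-like barcodes, whose intervals overlap. All 4 acinar-like barcodes with 3 genes were among those 6, at 1946 to 3272 UMIs, and 2 of the 4 held 7 and 13 T marker UMIs. None of the 6 held Ccnb1, Ccnb2, Birc5 or Ube2c.

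Of the mitotic genes, Cenpa had the most UMIs in T-like barcodes, with 14 in EYFP positive and 104 in EYFP negative ones. Top2a had 6 UMIs in 6 of 68 EYFP positive barcodes and 43 UMIs in 24 of 370 EYFP negative barcodes, at 11.8 CPM in EYFP positive cells and 13.5 CPM in EYFP negative cells. Mki67 had 1 UMI in the EYFP positive and 5 in the EYFP negative T-like barcodes. A single EYFP negative T-like barcode of 10814 UMIs held 10 of those Top2a UMIs, beside 1 UMI of Cenpa and 1 of Cks2 as its other mitotic genes.

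The B-like barcodes with many cell cycle genes also differed from other B-like barcodes in genes outside the list. In the EYFP negative library the 4 high barcodes were set against the 106 others, a comparison added after the values were seen, and at least 2-fold differences were common in it, with 26.8% of 6824 genes higher and 14.3% lower. Of 62 other cell cycle genes tested, 51 were higher and 6 lower. Since the 4 barcodes were chosen by their number of cell cycle genes, this count is not independent of that choice. The same holds for named genes that work in replication, such as Pclaf. The genes that ranked first by the rule for named genes were Basp1, a membrane-bound signalling protein, with 118 UMIs in 4 of 4 high barcodes and 0 UMIs in the 106 others (at least 225-fold higher), and Pclaf, a partner of Pcna, with 63 UMIs in the 4 and 0 in the others (at least 120-fold higher). Rgs13, Mybl1 and Mef2b, which are known from germinal centre B cells, the B cells that divide and mutate their antibody genes in lymphoid tissue, had 53, 27 and 42 UMIs in all 4 high barcodes, against 0, 0 and 2 UMIs in the others.

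Daam1, Txn1, Lmnb1, S100a4 and Hells completed the 10 higher genes, and the 22 UMIs of S100a4 came from a single barcode. Among the genes lower in the high barcodes, Ighd, the heavy chain of naive B cells, had 1 UMI in the 4 barcodes and 729 UMIs in the others. Ighm, the heavy chain of IgM, had 68 UMIs in the 4 barcodes and 11394 in the others and was 29.3 times lower (ratio 0.0341, 0.0264 to 0.0432). Plac8 had 0 UMIs in the 4 barcodes, against 342 in the others, and was at least 19.97-fold lower. The values of B marker barcode 4 include its T marker UMIs, and their part in these ratios was not tested.

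With 3 or more genes as the limit, B-like and T-like barcodes gave a different picture. In EYFP negative B-like barcodes Ighg2b was first, with 6967 UMIs in the 68 counted barcodes and 3 in the 42 others, but 6821 of them came from a single barcode. In EYFP negative T-like barcodes S100a6 was first, with 608 UMIs in 34 of 282 counted barcodes and 6 UMIs in the others (235 CPM against 9.99 CPM, ratio 23.6, 10.8 to 64.5). Pdcd1, the inhibitory receptor PD-1, had 39 UMIs in 18 counted barcodes and 0 in the others (at least 3.03-fold higher). Of 60 other cell cycle genes tested there, 3 were at least 2-fold higher and 1 lower, against 5.54% and 3.96% of all genes.

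Other cell cycle genes outside the 35 were read from a list of 99, of which 97 were in the files and 92 held at least 10 UMIs. In EYFP positive barcodes 43 were at least 2-fold lower and 8 at least 2-fold higher, with a median log2 ratio of -0.90. Over all genes tested 7.63% were 2-fold lower and 26.8% 2-fold higher, with a median of 0.21. Of 35 other mitosis genes tested 30 were lower and 0 higher, against 7 lower and 2 higher of 23 replication and nucleotide genes. These counts include the 9 high barcodes. Without those, 15 of the other cell cycle genes were at least 2-fold lower, where 6.66% of all genes were. Racgap1, which places the cleavage furrow, had 13 UMIs in EYFP positive barcodes and 159 in EYFP negative barcodes (ratio 0.145, 0.0754 to 0.255). Smc4, a condensin subunit, had 343 UMIs in EYFP positive barcodes and 1591 in EYFP negative barcodes (ratio 0.381, 0.338 to 0.429), and 231 of these UMIs lay in the 9 barcodes.

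The G1 cyclins and kinases, listed together with the E2F factor genes E2f1 and E2f2, went both ways in EYFP positive barcodes. Of 9 genes tested, 2 were at least 2-fold higher (Ccnd1, and E2f1 with 11 UMIs) and 2 at least 2-fold lower (Ccne1 and E2f2). The median log2 ratio of the 9 was 0.05. Of all genes tested 26.8% were 2-fold higher and 7.63% 2-fold lower, so the higher count of these few genes was near that share. Ccnd1, the cyclin that carries growth signals into the cycle, had 1829 UMIs (666 CPM) in EYFP positive barcodes and 283 UMIs (58.3 CPM) in EYFP negative barcodes, a ratio of 11.4 (10.1 to 13.0), with 0 UMIs in the 9 barcodes. Its relatives Ccnd2 and Ccnd3 had ratios of 0.702 (0.644 to 0.765) and 0.516 (0.442 to 0.601). Of the replication genes, Gmnn, which blocks a repeat of replication, had 189 UMIs in EYFP positive barcodes and 100 in EYFP negative barcodes, a ratio of 3.34 (2.61 to 4.305). The libraries hold different cell types, so these ratios mix cell type with level within a type.

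The brakes of the cycle went both ways. Of 14 genes of inhibitors and quiescence tested, 4 were at least 2-fold higher (Cdkn1a, Cdkn1c, Cdkn2b and Tob1) and 2 at least 2-fold lower (Btg1 and Cdkn2d) in EYFP positive barcodes, with a median log2 ratio of 0.06. Over all genes tested, 26.8% were at least 2-fold higher and 7.63% at least 2-fold lower, so the higher count was near that share. Cdkn1a (p21) and Cdkn1c (p57), inhibitors of cyclin-dependent kinases, had ratios of 7.78 (4.396 to 14.7) and 5.69 (3.52 to 9.53), chosen here after their values were seen. Their relative Cdkn1b (p27) had a ratio of 0.855 (0.750 to 0.973). Btg1 and Btg2, anti-proliferative factors, had ratios of 0.494 (0.469 to 0.520) and 1.23 (1.15 to 1.32), and Klf2, a factor of resting lymphocytes, 0.700 (0.656 to 0.747). Cdkn1b, Btg1, Btg2 and Klf2 each held under 3% of their UMIs in the 9 barcodes.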

How the data were processed

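Single-cell RNA was counted in 1 EYFP positive and 1 EYFP negative library of mouse pancreatic cells. The labels name the Chromium Single Cell 5′ kit, version 1.1. As deposited, each entry is an unnormalized UMI count, a whole number for 1 gene in 1 barcode. The submitters' processing notes name Cell Ranger 2.1.0 and GRCh38, whereas the file headers name software version 3.1.0 and carry mouse identifiers, so the mapping build is not known. Gene coordinates are those of GENCODE for GRCm38, matched by identifier.

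The filter on barcodes asked for 200 genes or more and no more than 20% of UMIs from mitochondrial genes. The remaining barcodes were clustered with scanpy 1.11.5 and leidenalg 0.10.2 (2000 variable genes, 30 components, 15 neighbours, resolution 1.0), with the 35 genes and other cell cycle genes left out. Clusters were named from marker lists by a rule written with the clusters in view. No doublets were taken out; Scrublet called 2 EYFP positive barcodes, against 5 EYFP negative ones.

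UMIs were summed per library and cluster and divided by the sum's total. Ratios carry an exact conditional binomial interval, levels an exact Poisson interval and shares an exact Clopper-Pearson interval, each at 95%. A sum of 0 was replaced by a floor of 3 UMIs for a bound. Gene lists are described over genes with at least 10 UMIs, with 0.5 UMI added. The ratios and intervals were tried only on simulated independent Poisson counts, which is the model they assume. That trial does not cover the gathering of UMIs in few barcodes. The 35 genes, the lists and the tests were chosen with earlier results of these data known. Named were all 35 genes, up to 4 other cell cycle genes per group by UMIs, and, for counted against other barcodes of T-like and B-like cells, 10 higher and 5 lower genes outside both lists with at least 20 UMIs, ranked by the interval bound nearest to 1, without mitochondrial, ribosomal, predicted and sex-linked genes. Some genes that these rules name are not reported here.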

Additional observations from a re-analysis of the deposited data

How the results depend on the processing

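The share of barcodes with 3 or more of the 35 genes moved with the choices that bear on depth. With 2 or more genes it was 26.0% in EYFP positive barcodes and 91.0% in EYFP negative ones, and with 5 or more 4.07% in EYFP positive and 30.0% in EYFP negative ones. Limits of 10 and 15 genes, added after the values were seen, gave 0.698% and 0.0% in EYFP positive barcodes, against 1.99% and 1.63% in EYFP negative ones. Without the 6 genes used by resting cells it was 2.67% in EYFP positive barcodes and 18.1% in EYFP negative barcodes. Thinned to 1000 UMIs it was 0.924% in EYFP positive and 4.74% in EYFP negative barcodes, and thinned to 3000 UMIs 18.4% in EYFP positive and 31.4% in EYFP negative barcodes. With every deposited barcode it was 8.56% in EYFP positive and 54.0% in EYFP negative barcodes, and under a stricter filter (500 genes, 10% mitochondrial UMIs) 42.3% in EYFP positive and 74.1% in EYFP negative barcodes. EYFP negative T-like barcodes had 91.4% with 2 or more genes, 32.4% with 5 or more, 18.6% without the 6 genes, 3.25% thinned to 1000 UMIs and 32.5% thinned to 3000. EYFP negative B-like barcodes had 90.9%, 18.2%, 10.9%, 5.45% and 29.6% under the same settings. Thinned to 3000 UMIs, EYFP positive T-like barcodes had 23.1% and EYFP positive B-like barcodes 23.9%. EYFP positive ductal or metaplastic-like barcodes had 17.9% with 2 or more genes, 4.48% without the 6 genes, 0.0% thinned to 1000 UMIs, 26.7% thinned to 3000 and 78.6% under that filter.

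Which barcodes a cluster took moved its level. The EYFP negative T-like level was 1030 CPM, against 2085 CPM with the 35 genes among the variable genes, 1715 CPM at resolution 0.5, 1240 CPM at resolution 2.0 and 1603 CPM with a type per barcode from marker UMIs. The EYFP negative B-like level was 2536 CPM, against 769 CPM with the 35 genes among the variable genes and 978 CPM with a type per barcode, and the erythroid-like level 9652 CPM with a type per barcode. The level of the 35 genes over the EYFP positive library was 469 CPM with every deposited barcode, 666 CPM under the stricter filter and 873 CPM over a total without acinar, mitochondrial, ribosomal and hemoglobin genes. Over the EYFP negative library it was 1268 CPM without erythroid-like barcodes, 1631 CPM with every deposited barcode, 2910.5 CPM over the reduced total, 939 CPM without the 9 high barcodes and 1591 CPM without the shared barcodes, the last pair added after the values were seen.

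The median log2 ratio of the 35 genes, -3.19, was -1.62 without erythroid-like barcodes, -2.84 with every deposited barcode, -2.85 under the stricter filter, -1.415 as a mean over cells, -2.33 without the shared barcodes and -0.46 without the 9 high barcodes, where 3 genes in place of 27 were 2-fold lower. Of all genes tested, 7.63% were 2-fold lower with every kept barcode and 6.66% without the 9. The median of the 35 genes stayed below the median of all genes tested in each of these settings. Another scaling moved the median of all genes, 0.21, to -0.03 with median-of-ratios factors. There the 35 genes had a median of -3.43 with 30 lower, against 11.1% of all genes. Within B-like cells the median of -2.64 was -0.48 with counted barcodes left out, -0.47 thinned to 1000 UMIs and -0.32 without the high barcodes. The S-phase sum moved from -0.91 to -0.60 and the mitotic sum from -3.21 to -0.34 without the 9, and the other cell cycle genes at least 2-fold lower from 43 to 15. Other cell cycle genes at least 2-fold higher in counted EYFP negative B-like barcodes numbered 27 with 3 or more genes and 51 with 15 or more. Of all 6824 genes tested there, 9.33% and 26.8% were higher, in that order. The barcodes were picked by their cell cycle genes, so these counts are not independent of that choice. In all, 57 values under the alternatives moved little and 60 moved further. No paired analysis was possible because each group is 1 library. Counts of 0 to 12 UMIs limit the single mitotic genes in EYFP positive barcodes, apart from Cenpa (51), Cks1b (32) and Cks2 (24). Of the EYFP positive barcodes, 427 were too shallow to be thinned to 1000 UMIs.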

Other observations

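Barcodes that the filter removed were not used above. Among 857 removed EYFP positive barcodes 2 showed 3 or more of the 35 genes, and among 192 removed EYFP negative barcodes 1 did, with 144 cell cycle UMIs over the removed EYFP positive barcodes and 42 over the removed EYFP negative ones. The counts of 2 and 1 are below the limit of 3 counts used here.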
